A study of Mus musculus with 39 samples.

Results

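Batch 1 of the nuclear RNA-seq was examined here. It holds 8 of the 39 samples of the series, 4 libraries of FANS-nuclei and 4 of INTACT-nuclei, and the columns of the first table of normalized read counts whose names carry these 2 techniques were taken as its members. All libraries came from sfGFP+ nuclei of the neocortex of adult Arc-CreERT2 × R26 CAG-Sun1-sfGFP-Myc mice, in which tamoxifen lets the Cre recombinase, made only in cells that express the activity-regulated gene Arc, switch on a nuclear membrane protein fused to sfGFP. The labels call the material activated neuronal nuclei. In INTACT (the tagging of nuclei in chosen cell types for their isolation), the nuclei were captured on magnetic beads by an antibody against GFP, whereas in FANS (fluorescence-activated nuclei sorting) they were sorted in a flow cytometer by DNA stain and GFP. Both groups shared the genotype, the tamoxifen, the 10000 nuclei per library and the SoLo library kit. The question was which classes of genes, other than the small nucleolar RNAs, ribosomal protein genes and glial markers, differed between the 2 isolation techniques.

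The RNA of a nucleus is a mixture of transcripts that are still being made or spliced, transcripts that stay in the nucleus and mature mRNAs that have not left it. Many long non-coding RNAs and the primary transcripts of microRNAs belong to the nuclear fraction, and many of their genes lie within the introns of much longer protein-coding genes. The mRNAs of secreted and membrane proteins encode a hydrophobic stretch that takes the growing protein to the endoplasmic reticulum (ER), where the mRNA is translated. Transcript type, position inside another gene, length, abundance and the encoded protein were therefore the groupings used.

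The FANS libraries held 4853224 to 6066759 reads on genes and the INTACT libraries 8621143 to 11028713. Reads assigned to no gene feature made up 79.4 to 81.7% of reads in FANS and 71.3 to 72.7% in INTACT, and the 2 ranges of each measure did not overlap (exact permutation test, two-sided, p = 0.0286 for both, the smallest that 4 against 4 can give, 0.0343 after adjustment over 6 library measures). On the authors' scale the signal outside features was lower in INTACT by -0.80 ± 0.06 (log2, SE). Markers of glia moved with the technique. Of 17 astrocyte and 21 oligodendrocyte markers tested, 11 and 11 were enriched in INTACT, beside 4.03% of all genes. The summed level of the astrocyte list was 7761 to 8603 normalized counts in FANS and 9627 to 9965 in INTACT, with a list median of 1.04 on the log2 scale. The oligodendrocyte list summed to 9438 to 11531 in FANS and 14430 to 15415 in INTACT, with a list median of 0.61, and no marker of either list was at 0. None of 14 markers of excitatory neurons was called in either direction, with 9 values below 0, 5 above and a list median of -0.11. Their summed level was 13768 to 13968 in FANS and 13209 to 13709 in INTACT, ranges that did not overlap. In such bulk samples, fewer nuclei of a type and less RNA per nucleus cannot be told apart.

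INTACT and FANS were compared with limma on log2(normalized count + 1) over 15114 genes, and each difference below is INTACT minus FANS on this log2 scale, with its standard error and n = 4 libraries per technique. At an adjusted p under 0.05 and at least 1.5-fold, 609 genes (4.03%) were enriched and 596 (3.94%) depleted in INTACT, with a median over all genes of 0.007. The 2 sets differed in makeup. Protein-coding genes were 592 of the 609 enriched genes, whereas 273 of the 596 depleted genes were non-coding, although non-coding genes were 1359 (8.99%) of the genes tested. The 4 FANS and 4 INTACT values did not overlap for 33.6% of all genes tested, with INTACT higher for 17.1% and lower for 16.5%. The study describes each batch as a distinct biological source, and the labels do not name separate animals, so the p-values measure the spread between libraries of this batch, which may be technical.

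By transcript type, the microRNA and long non-coding RNA genes leaned to depletion. Of 917 long non-coding RNA genes, 196 (21.4%) were depleted and 6 enriched, with a median of -0.25. Of 210 microRNA genes, 39 (18.6%) were depleted and 3 enriched, with a median of -0.41, and of 114 pseudogenes 26 and 1. Protein-coding genes had a median of 0.02, with 592 enriched and 321 depleted of 13708. Small nucleolar RNAs, with 10 depleted and 2 enriched of 100, had a median of -0.17. The plot of transcript classes sets these beside the classes by position.

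**Figure D1:**
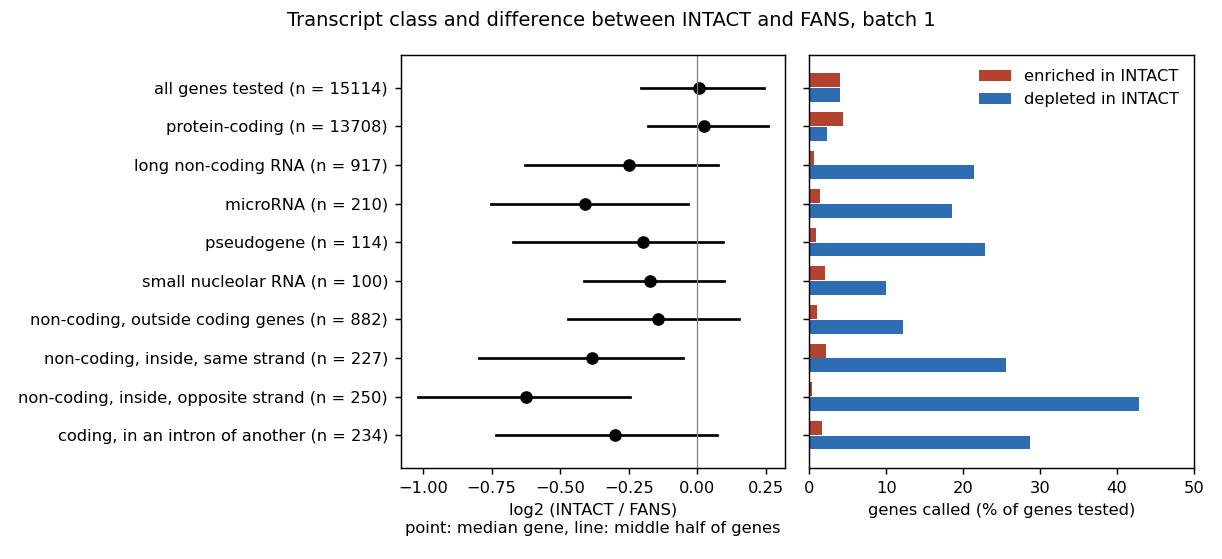
Log2 difference between INTACT and FANS (left, the point is the median gene and the line spans the quartiles) and percent of genes called in each direction (right) for classes of transcripts in batch 1, with the number of genes tested in brackets. Non-coding genes inside a protein-coding gene on the opposite strand had the lowest median of these classes, -0.63, and 42.8% of them were depleted.

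A microRNA gene row counts reads over the hairpin, so it measures the primary transcript or reads from the host intron and not the mature microRNA. Mature sequences were found in RefSeq (GRCm38.p6) for 31 of the 39 depleted rows. Both arms are shown here for the 4 depleted rows with a mean of at least 50 normalized counts, and the shared arm for the pairs of depleted rows that share a seed (bases 2 to 8, in capitals), the part that pairs with target mRNAs, and are written 5′ to 3′.
miR-128-3p of Mir128-2 (chr9:112118644-112118664, minus strand): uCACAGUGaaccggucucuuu
miR-128-2-5p of Mir128-2 (chr9:112118679-112118701, minus strand): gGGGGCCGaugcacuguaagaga
miR-3068-5p of Mir3068 (chr12:87437724-87437747, minus strand): uUGGAGUUcaugcaaguucuaacc
miR-3068-3p of Mir3068 (chr12:87437685-87437706, minus strand): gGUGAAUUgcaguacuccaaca
miR-1188-5p of Mir1188 (chr12:109611841-109611861, plus strand): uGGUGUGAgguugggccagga
miR-1188-3p of Mir1188 (chr12:109611877-109611901, plus strand): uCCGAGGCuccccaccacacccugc
miR-384-3p of Mir384 (chrX:105344292-105344313, minus strand): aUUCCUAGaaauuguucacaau
miR-384-5p of Mir384 (chrX:105344332-105344354, minus strand): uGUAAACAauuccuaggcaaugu
let-7e-5p of Mirlet7e (chr17:17830366-17830387, plus strand): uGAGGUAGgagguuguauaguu
let-7f-5p of Mirlet7f-2 (chrX:151912353-151912374, plus strand): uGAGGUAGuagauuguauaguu
miR-138-5p of Mir138-1 (chr9:122682898-122682920, plus strand): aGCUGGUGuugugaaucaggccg
miR-344-5p of Mir344 (chr7:61877819-61877844, minus strand): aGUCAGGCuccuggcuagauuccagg
miR-344g-5p of Mir344g (chr7:61982335-61982355, minus strand): aGUCAGGCuccuggcaggagu
Mir138-1 and Mir138-2, on 2 chromosomes, encode the same miR-138-5p.

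Mir128-2, whose product miR-128 is abundant in neurons, had the largest depletion of the named genes. Its row held 197, 217, 279 and 214 in the FANS libraries and 53.6, 45.1, 37.9 and 48.9 in the INTACT libraries. All INTACT values lay below all FANS values, as the rule that named it required, and the difference was -2.26 ± 0.13 (adjusted p = 3.97e-12). It lies on the same strand within Arpp21, a phosphoprotein gene of the forebrain, which held 10440, 11003, 12428 and 11233 in the FANS libraries and 6667, 6527, 6289 and 6676 in the INTACT libraries and fell by less, with a difference of -0.78 ± 0.05 (adjusted p = 3.33e-12). Mir3068, within the demethylase gene Alkbh1, held 75.9, 64.99, 62.7 and 74.9 in the FANS libraries and 33.7, 22.2, 55.1 and 36.4 in the INTACT libraries and differed by -0.97 ± 0.21 (adjusted p = 6.00e-04). Mir1188, in an imprinted microRNA cluster of chromosome 12, held 127, 128, 110 and 148 in the FANS libraries and 77.9, 71.1, 83.7 and 83.3 in the INTACT libraries and differed by -0.69 ± 0.12 (adjusted p = 8.90e-05). For Mir384 the values were 74.6, 51.5, 74.95 and 74.9 in the FANS libraries and 46.7, 49.7, 38.5 and 42.3 in the INTACT libraries, with a difference of -0.62 ± 0.17 (adjusted p = 0.00543) that falls under the fold limit without FANS replicate 1, 3 or 4 or without INTACT replicate 3 (-0.57, -0.57, -0.57 and -0.55).

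Depleted rows that share a seed were low in count. The let-7 pair, a family that holds back growth genes, differed by -0.95 ± 0.25 for Mirlet7e and -0.98 ± 0.33 for Mirlet7f-2, and the miR-138 pair by -0.62 ± 0.24 and -0.76 ± 0.28. Mir344 and Mir344g differed by -1.73 ± 0.48 and -0.71 ± 0.28. Means of these 6 rows were 7.73 to 26.4 normalized counts, and 151 of the 210 microRNA rows had a mean under 20. Of the 210 microRNA rows tested, 123 lay inside a protein-coding gene, as did 30 of the 39 depleted rows.

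Non-coding genes differed by their position relative to protein-coding genes. Of 250 non-coding genes within the span of a protein-coding gene on the opposite strand, 107 (42.8%) were depleted and 1 enriched, and 222 had a value below 0. On the same strand, 58 of 227 (25.6%) were depleted and 5 enriched, with a median of -0.39. The 2 strands hold different types of RNA, and among long non-coding RNAs alone 16 of 33 (48.5%) on the same strand and 92 of 207 (44.4%) on the opposite strand were depleted, with medians of -0.74 and -0.63. Outside protein-coding genes, 108 of 882 (12.2%) were depleted and 9 enriched, with a median of -0.14. Of 234 protein-coding genes that lie within another protein-coding gene and share no exonic base with it, a class chosen after values were seen, 67 (28.6%) were depleted and 4 enriched, with a median of -0.30, against 1.85% depleted among the 13384 protein-coding genes outside others. Together, genes inside another without a shared exon were 210 of the 596 depleted genes and 618 of all genes tested.

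Of the 12 genes with the largest depletion by the naming rule, 11 lay inside another gene. The long non-coding RNA 9530091C08Rik (chr9:68765346-68773322), on the strand of the nuclear receptor gene Rora, held 1017, 1232, 1327 and 1382 in the FANS libraries and 337, 249, 233 and 264 in the INTACT libraries, a difference of -2.20 ± 0.09 (adjusted p = 8.41e-15). Rora itself held 824, 819, 769 and 860 in the FANS libraries and 677, 723, 712 and 693 in the INTACT libraries and differed by -0.22 ± 0.06, under the fold limit. Both genes were lower in every INTACT library than in any FANS library, the inner one by far more. The naming rule required this separation of the inner gene, and 16.5% of all genes tested were lower in INTACT without overlap.

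The long non-coding RNA 5031426D15Rik (chr2:6922702-6928722), within the RNA-binding protein gene Celf2, held 2489, 2886, 3306 and 2936 in the FANS libraries and 777, 802, 649 and 765 in the INTACT libraries and differed by -1.95 ± 0.07 (adjusted p = 2.33e-16), against -0.53 ± 0.04 for Celf2. Nrg3os (chr14:38898302-38958794), antisense to the neuregulin gene Nrg3, held 341, 378, 472 and 451 in the FANS libraries and 129, 109, 106 and 110 in the INTACT libraries and differed by -1.84 ± 0.10 (adjusted p = 1.46e-12), against -0.52 ± 0.06 for Nrg3. Neither host passed the fold limit. The imprinted antisense RNA Kcnq1ot1, which shares exonic sequence with the potassium channel gene Kcnq1 around it and silences neighbouring genes on the paternal chromosome, held 18376, 18320, 18794 and 23361 in the FANS libraries and 12162, 9728, 8709 and 8340 in the INTACT libraries and differed by -1.03 ± 0.08 (adjusted p = 5.30e-10).

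Protein-coding genes of this kind included Lrtm1, a leucine-rich repeat membrane protein gene (chr14:29018208-29033642) antisense within the calcium channel subunit gene Cacna2d3. It held 584, 609, 724 and 712 in the FANS libraries and 208, 180, 183 and 192 in the INTACT libraries and differed by -1.78 ± 0.08 (adjusted p = 2.25e-14). Cacna2d3 held 1528, 1674, 1684 and 1608 in the FANS libraries and 1529, 1560, 1486 and 1613 in the INTACT libraries, groups that overlapped, with a difference of -0.07 ± 0.05 (adjusted p = 0.282). The intronless thioesterase gene Acot10 (chr15:20665214-20666750), within the cadherin gene Cdh12, held 117, 119, 207 and 157 in the FANS libraries and 50.2, 37.5, 40.5 and 39 in the INTACT libraries and differed by -1.79 ± 0.17 (adjusted p = 6.82e-09), against 0.09 ± 0.05 for Cdh12. In each of these pairs the inner gene alone was called.

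For some pairs the host differed in the opposite direction. Gm5136 (chr10:108699044-108700160), within the synaptotagmin gene Syt1, held 143, 150, 176 and 144 in the FANS libraries and 51.04, 49.7, 48.5 and 53.5 in the INTACT libraries and differed by -1.57 ± 0.13 (adjusted p = 7.39e-10), while Syt1, the calcium sensor of transmitter release, held 7262, 6990, 6800 and 7799 in the FANS libraries and 10090, 9478, 9687 and 9784 in the INTACT libraries and differed by 0.44 ± 0.04. Pcsk2os2 (chr2:143747583-143789186), antisense within the prohormone convertase gene Pcsk2 and overlapping its exons, held 450, 460, 387 and 654 in the FANS libraries and 272, 219, 211 and 198 in the INTACT libraries and differed by -1.10 ± 0.11 (adjusted p = 4.59e-08), whereas Pcsk2 held 2332, 2271, 2123 and 2733 in the FANS libraries and 3068, 2875, 2974 and 2942 in the INTACT libraries and differed by 0.33 ± 0.06. Both hosts had higher values in all INTACT libraries, below the fold limit.

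**Figure D2:**
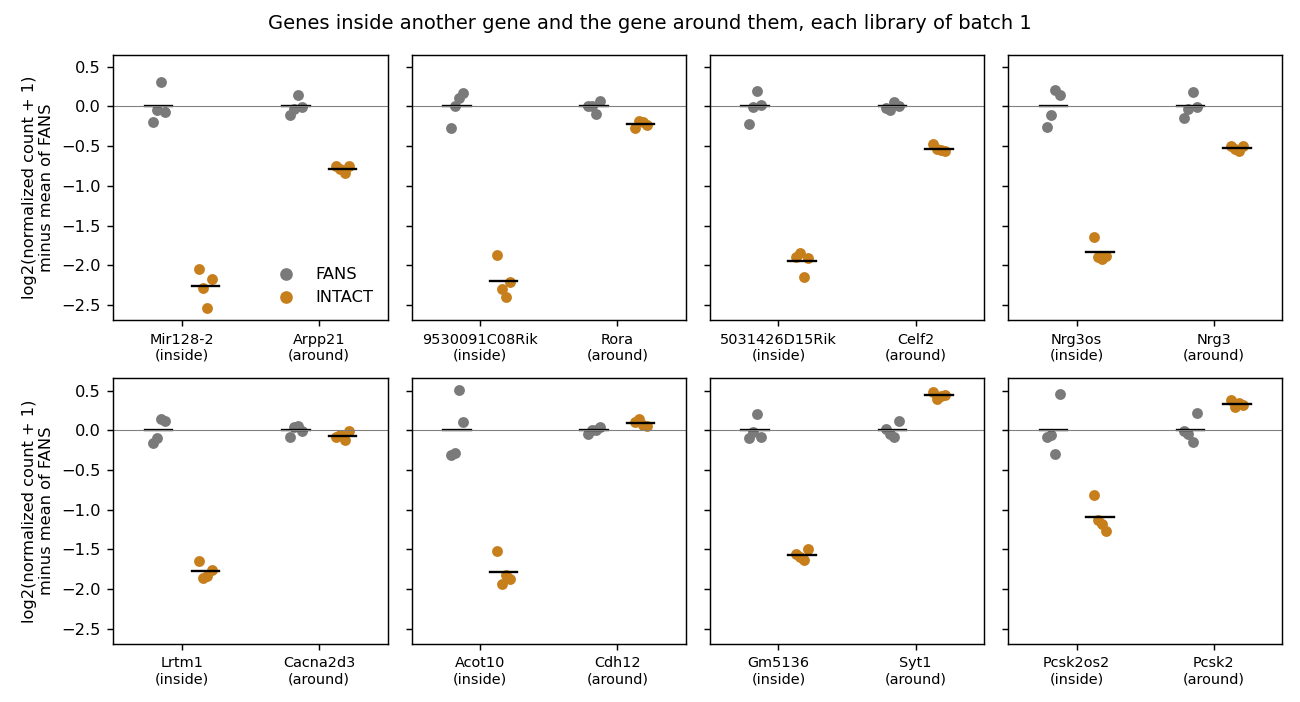
Each library of batch 1 for 8 genes inside another gene and for the gene around each, as log2(normalized count + 1) minus the mean of the 4 FANS libraries (points: libraries, bars: means). The inner genes lay 1.10 to 2.26 lower in INTACT, while the surrounding genes ranged from -0.78 (Arpp21) to 0.44 (Syt1).

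Med12l, a subunit gene of the Mediator complex, carried the largest cluster, and 6 of the 6 genes tested within it, all antisense, were depleted. Among them, the long non-coding RNA F630111L10Rik overlaps P2ry14, and their reads may be split. Gpr171, a G protein-coupled receptor gene, held 215, 204, 252 and 228 in the FANS libraries and 106, 90.2, 106 and 106 in the INTACT libraries and differed by -1.12 ± 0.10 (adjusted p = 6.17e-09). P2ry14, a receptor for UDP-sugars, held 141, 169, 158 and 157 in the FANS libraries and 89.1, 52.01, 74.4 and 65.4 in the INTACT libraries and differed by -1.17 ± 0.14 (adjusted p = 3.43e-07). Each had all INTACT values below all FANS values. P2ry13 differed by -1.17 ± 0.20 and P2ry12 by -1.01 ± 0.20 (adjusted p = 5.98e-05 and 3.32e-04), and Med12l itself by -0.18 ± 0.05. P2ry12 and P2ry13 are markers of microglia, and they were the only 2 of the 8 microglial markers tested that were depleted, with 1 enriched and a list median of -0.07. Of all genes, 3.94% were depleted and 4.03% enriched.

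Over all 595 pairs of an inner gene without a shared exon and a tested host, the inner gene had the lower difference in 474, with a median of -0.50 for inner genes and -0.11 for hosts. Among the 208 pairs with a depleted inner gene, 190 hosts were not called, 15 were depleted and 3 enriched. Over all 595 pairs, 548 hosts were not called, 26 were depleted and 21 enriched. Of all genes 3.94% were depleted and 4.03% enriched, and of protein-coding genes 2.34% and 4.32%, so most hosts not being called is no result about hosts. The share depleted rose with the span of the host, a grouping also made after values were seen. It was 9.23% (12 of 130) within hosts under 30 kb, 22.1% (32 of 145) at 30 to 100 kb, 44.7% (68 of 152) at 100 to 300 kb and 57.1% (96 of 168) above 300 kb, with medians of -0.10, -0.37, -0.65 and -0.94. The sources used here do not say whether counting used the strand, so reads of an inner gene and unspliced reads of the gene around it cannot be told apart. The signal outside features, given above, moved in the same direction, and its part in these differences was not tested.

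Depletion also occurred among genes that lie inside no protein-coding gene, short and long. The gene of Cdr1, best known for the circular RNA made from its antisense strand, held 3877, 3877, 4545 and 3564 in the FANS libraries and 1876, 1643, 1698 and 1652 in the INTACT libraries and differed by -1.20 ± 0.06 (adjusted p = 1.06e-13), and C230004F18Rik, a long non-coding RNA on the other strand near it, differed by -1.17 ± 0.08 (adjusted p = 5.97e-11). Erc2, a scaffold of the presynaptic active zone, held 3060, 3192, 3685 and 3191 in the FANS libraries and 1744, 1579, 1583 and 1761 in the INTACT libraries and differed by -0.98 ± 0.05 (adjusted p = 1.47e-12). The ubiquitin ligase gene Ube3a, which is imprinted in neurons, held 4490, 4594, 5264 and 5074 in the FANS libraries and 2608, 2568, 2378 and 2371 in the INTACT libraries and differed by -0.97 ± 0.05 (adjusted p = 5.58e-13), and Snhg14, the long RNA that runs antisense across it, differed by -0.63 ± 0.06 (adjusted p = 3.37e-09). Without FANS replicate 3, Snhg14 falls to -0.56, under the fold limit. Because strand use is unknown, the reads of these overlapping partners cannot be told apart either. Kcnip4, a potassium channel partner, differed by -0.91 ± 0.07 (adjusted p = 7.19e-10). Muc6, which encodes a gastric mucin, held 208, 190, 243 and 254 in the FANS libraries and 77, 50.5, 49.8 and 51.6 in the INTACT libraries and differed by -1.96 ± 0.14 (adjusted p = 1.07e-10).

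Of 16 RNAs known to stay in the nucleus, 5 (31.2%) were depleted and 0 enriched, with a median of -0.48, beside 20.1% depleted and a median of -0.24 over all non-coding genes. Meg3, an imprinted long non-coding RNA, held 148771, 145756, 157131 and 150974 in the FANS libraries and 92604, 81196, 81271 and 86426 in the INTACT libraries and differed by -0.82 ± 0.05 (adjusted p = 1.92e-12). Malat1, a speckle RNA and one of the most abundant nuclear transcripts, held 575152, 574980, 678290 and 497525 in the FANS libraries and 404436, 367528, 379684 and 410990 in the INTACT libraries and differed by -0.57 ± 0.07 (adjusted p = 2.69e-07), just under the fold limit, which it passed without FANS replicate 4 or INTACT replicate 4 (-0.64 and -0.59). Neat1, the scaffold of paraspeckles, held 1060, 1170, 1202 and 989 in the FANS libraries and 1220, 1114, 1136 and 1088 in the INTACT libraries, with a difference of 0.05 ± 0.06 (adjusted p = 0.574). Its groups overlapped.

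Among protein-coding genes, the span of the gene on the chromosome ordered the differences. Of 3216 genes that span under 10 kb, 334 (10.4%) were enriched and 81 (2.52%) depleted, with a median of 0.26, against 4.32% enriched and 2.34% depleted of all 13708 protein-coding genes. The median fell through 0.07 at 10 to 30 kb, -0.07 at 30 to 100 kb and -0.12 at 100 to 300 kb to -0.20 above 300 kb, where 7 of 521 genes were enriched and 39 (7.49%) depleted. Genes under 10 kb made up 54.8% of all enriched genes and 21.3% of genes tested. The steps were small beside the differences of single genes. In the shortest and longest classes, the only ones looked at by library, the shift appeared in each INTACT library. Set against the FANS mean, the median gene under 10 kb and outside other genes lay 0.26 to 0.30 higher in the 4 INTACT libraries and -0.07 to 0.06 in the FANS libraries, and the median gene above 300 kb -0.21 to -0.16 in INTACT and -0.04 to 0.08 in FANS.

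Exonic length gave a similar order, from a median of 0.26 below 1 kb (93 enriched and 15 depleted of 703) to -0.10 above 8 kb (9 and 28 of 867). Within classes of span the order was not the same. Below 10 kb of span the median went from 0.33 for exonic lengths under 1 kb to 0.17 at 4 to 8 kb. Genes that span 30 to 100 kb had medians of -0.07, -0.06 and -0.07 at exonic lengths of 1 to 2, 2 to 4 and 4 to 8 kb. Above 300 kb of span the order was turned, from -0.38 at 1 to 2 kb (15 genes) through -0.23 and -0.21 to -0.13 above 8 kb. At an exonic length of 2 to 4 kb, the median went from 0.21 below 10 kb of span to -0.12 at 100 to 300 kb. Genes of 1 exon split by position, with 35 enriched and 9 depleted of 289 outside other genes and 0 and 26 of 90 inside them. Exonic GC content moved with span and with the difference. The median was -0.03 below 46% GC and 0.24 above 58%, where 142 of 1580 genes were enriched and 13 depleted, and the part of GC in the order by span was not tested.

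**Figure D3:**
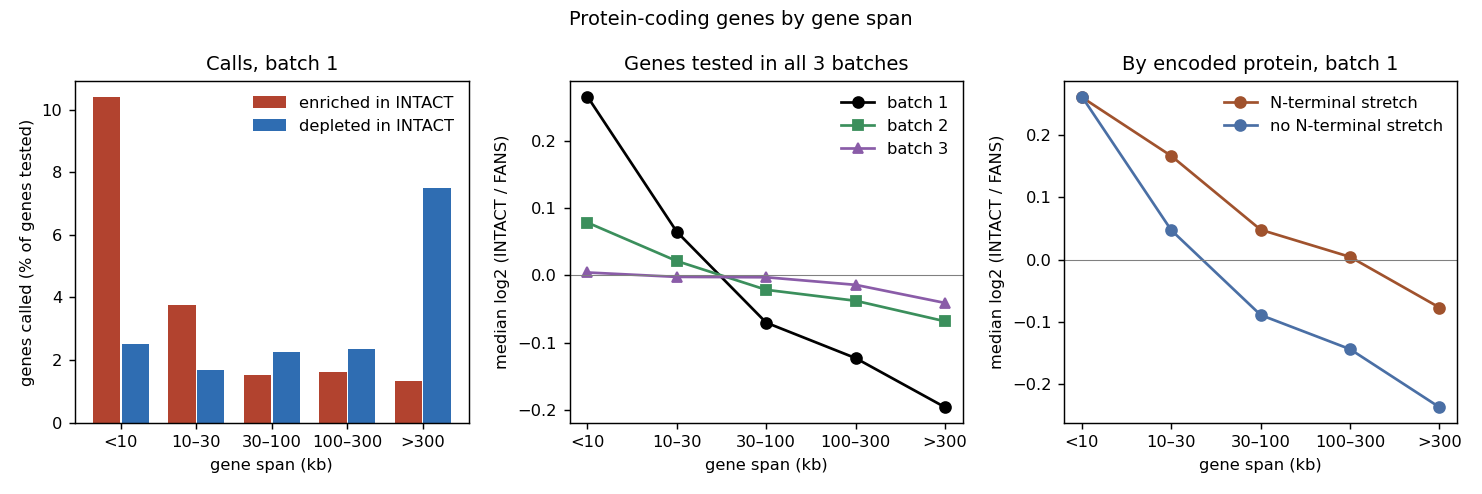
Protein-coding genes by the span of the gene in kb: percent of genes called in batch 1 (left), median log2 difference between INTACT and FANS in each of the 3 batches over genes tested in all of them (middle), and median in batch 1 for genes with and without an N-terminal hydrophobic stretch in the encoded protein (right). The median of batch 1 fell from 0.27 below 10 kb to -0.20 above 300 kb, a wider range than in batch 2 or batch 3.

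Abundance set how often genes were called more than in which direction they leaned. Protein-coding genes with a mean of 20 to 100 normalized counts were called most often, with 233 (6.85%) enriched and 155 (4.56%) depleted of 3402, and those of 500 to 2000 least often, with 61 and 26 of 2567. Their medians lay between -0.05 and 0.07. Depleted non-coding genes occurred at every level, from 13.2% of 524 at a mean of 5 to 20 to 29.3% of 41 at 500 to 2000, with medians between -0.36 and -0.23. At each level, protein-coding genes under 10 kb had medians above 0, of 0.14, 0.24, 0.29, 0.33 and 0.15 from the lowest to the highest level, the last over 21 genes.

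The encoded protein was a further axis. Coding sequences of the RefSeq annotation were translated, and a protein was given an N-terminal stretch when 10 residues in a row among its first 35 had a mean hydropathy of at least 2, as signal peptides and N-terminal anchors have, and a membrane stretch when 19 later residues had a mean of at least 1.6. Of 2704 genes with an N-terminal stretch, 229 (8.47%) were enriched and 91 (3.37%) depleted, with a median of 0.12. Of 11004 without one, 363 (3.3%) and 230 (2.09%) were called, with a median of 0.005. A membrane stretch alone came with 107 (3.91%) enriched of 2737, near the 4.32% of all protein-coding genes. Leaving out the glial and vascular markers kept 215 enriched of 2684. Below 10 kb of span the medians were 0.26 with and 0.26 without the stretch, while 13.1% (88 of 674) and 9.68% (246 of 2542) were enriched and 4.15% (28) and 2.08% (53) depleted. The medians with and without it stood at 0.17 against 0.05 at 10 to 30 kb, 0.05 against -0.09 at 30 to 100 kb, 0.004 against -0.14 at 100 to 300 kb and -0.08 against -0.24 above it.

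Of 32 genes of neuropeptides and secretory granules, 13 (40.6%, beside 4.03% of all genes) were enriched and 0 depleted, with a median of 0.49. Penk, which encodes the enkephalin precursor, held 211, 162, 164 and 188 in the FANS libraries and 264, 338, 353 and 338 in the INTACT libraries and differed by 0.83 ± 0.10 (adjusted p = 3.96e-07). Carboxypeptidase E (Cpe), which trims prohormones, held 1561, 1462, 1105 and 1774 in the FANS libraries and 2526, 2331, 2566 and 2462 in the INTACT libraries and differed by 0.76 ± 0.08 (adjusted p = 1.03e-07). The convertase inhibitor gene Pcsk1n held 120, 104, 95.4 and 115 in the FANS libraries and 222, 199, 195 and 182 in the INTACT libraries and differed by 0.88 ± 0.11 (adjusted p = 3.96e-07). All 3 were higher in every INTACT library than in any FANS library.

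The 2 members with the largest values, named after these were seen, were low in count and mark inhibitory interneurons. Neuropeptide Y (Npy) held 10.3, 0, 5.45 and 3.06 in the FANS libraries and 20.8, 12.2, 27.2 and 15.2 in the INTACT libraries and differed by 2.20 ± 0.53 (adjusted p = 0.00178), and somatostatin (Sst) held 32.1, 22.1, 16.4 and 18.3 in the FANS libraries and 57.1, 48.2, 83.02 and 58.8 in the INTACT libraries and differed by 1.45 ± 0.22 (adjusted p = 1.27e-05). Of 9 inhibitory neuron markers tested, 3 were enriched and 1 depleted, beside 4.03% and 3.94% of all genes. The summed level of these markers was 488 to 624 in FANS and 653 to 757 in INTACT, with no marker at 0. The part of these nuclei in the list's values was not tested.

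Lysosomal genes gave 11 enriched (23.9%, beside 4.03% of all genes) and 0 depleted of 46, with a median of 0.34. Glia express many of these genes, and the part of the glial markers given above in these values was not tested. The protease gene Ctsb held 575, 555, 480 and 650 in the FANS libraries and 1044, 1011, 997 and 990 in the INTACT libraries and differed by 0.85 ± 0.07 (adjusted p = 8.65e-10), and Psap, the precursor of the saposins that help degrade sphingolipids, held 1628, 1644, 1450 and 1765 in the FANS libraries and 2820, 2582, 2783 and 2705 in the INTACT libraries and differed by 0.75 ± 0.05 (adjusted p = 1.07e-10). Neither gene's groups overlapped. Of 17 vacuolar ATPase genes, 4 were enriched and 0 depleted, among them the accessory subunit gene Atp6ap2 with 0.75 ± 0.08 (adjusted p = 4.48e-08).

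Genes for protein folding in the ER and its stress response gave 8 enriched (17.4%, beside 4.03% of all genes) and 0 depleted of 46, with a median of 0.31. The chaperone gene Hspa5 (BiP) held 720, 722, 638 and 726 in the FANS libraries and 1106, 1220, 1183 and 1234 in the INTACT libraries and differed by 0.76 ± 0.06 (adjusted p = 2.90e-10). Calreticulin (Calr) held 674, 630, 551 and 666 in the FANS libraries and 978, 1052, 1096 and 1106 in the INTACT libraries and differed by 0.75 ± 0.06 (adjusted p = 1.85e-09), and the disulfide isomerase gene Pdia3 held 523, 584, 503 and 561 in the FANS libraries and 954, 977, 924 and 962 in the INTACT libraries and differed by 0.82 ± 0.06 (adjusted p = 1.21e-10). The enriched members were chaperones and other folding proteins with the exception of Atf6b, a stress sensor, and the stress-induced transcription factor gene Ddit3 was not called. ER to Golgi traffic genes (4 enriched and 0 depleted of 49, median 0.17) were led by the cargo receptor gene Tmed7 with 0.86 ± 0.06 (adjusted p = 2.15e-10). Genes of N-glycosylation (2 enriched and 0 depleted of 36, median 0.19), ER translocation (1 enriched and 0 depleted of 24, median 0.26) and cholesterol synthesis (1 enriched and 0 depleted of 26, median 0.19) were called at shares near the 4.03% over all genes.

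**Figure D4:**
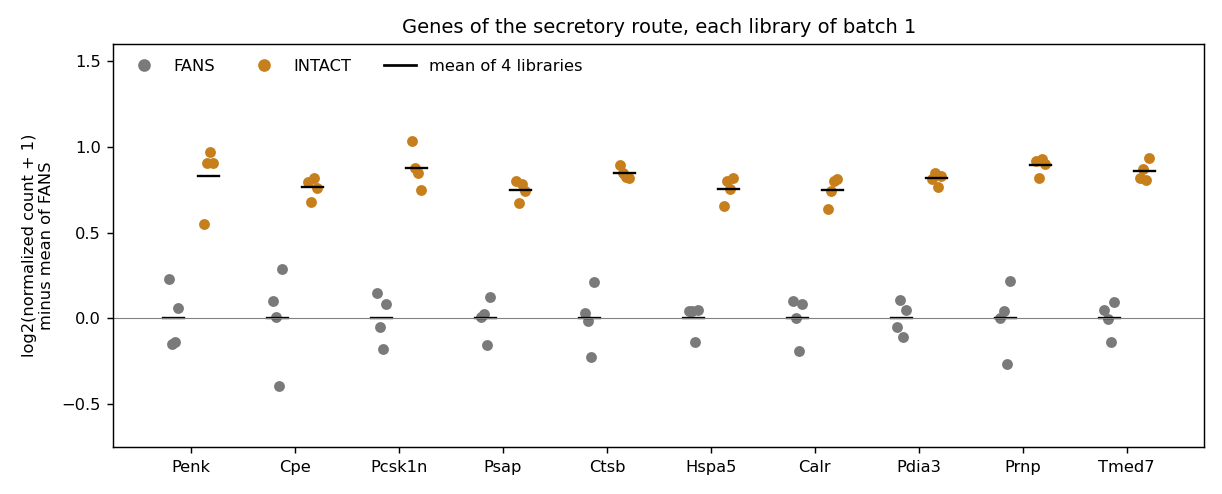
Each library of batch 1 for 10 genes that encode secreted, lysosomal, ER or membrane proteins, as log2(normalized count + 1) minus the mean of the 4 FANS libraries (points: libraries, bars: means of 4 libraries). These 10 genes were picked among those called, and for each of them every INTACT library lay above every FANS library, as for 17.1% of all genes tested, with differences of 0.75 (Calr) to 0.89 (Prnp).

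Several genes with large enrichment outside the glial markers were short. The prion protein gene Prnp, which overlaps a longer RefSeq gene on its strand, held 697, 717, 579 and 808 in the FANS libraries and 1315, 1229, 1326 and 1301 in the INTACT libraries and differed by 0.89 ± 0.07 (adjusted p = 5.15e-10). Map1lc3a, an autophagosome protein gene, held 50.2, 55.2, 62.7 and 41.3 in the FANS libraries and 112, 92.5, 111 and 104 in the INTACT libraries and differed by 1.00 ± 0.15 (adjusted p = 7.40e-06). The secreted protease inhibitor gene Cst3 held 130, 145, 84.5 and 90.2 in the FANS libraries and 228, 234, 215 and 230 in the INTACT libraries and differed by 1.04 ± 0.13 (adjusted p = 7.89e-07), and glia also express it. Rce1, an ER protease of prenylated proteins, differed by 0.96 ± 0.13 (adjusted p = 1.71e-06) and Tmem35, a chaperone of nicotinic receptors, by 0.98 ± 0.16 (adjusted p = 3.92e-05). An exception in length was Synpr, a synaptic vesicle protein gene that spans 331 kb, with 126, 125, 65.4 and 125 in the FANS libraries and 218, 207, 216 and 208 in the INTACT libraries and a difference of 0.99 ± 0.15 (adjusted p = 9.18e-06). Of the 12 genes with the largest enrichment by the naming rule, 5 were glial markers of the lists used, and Ptgds and Gpr37 are also known from oligodendrocytes.

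Housekeeping lists outside the secretory route also had medians above 0, while 4.03% of all genes were enriched and 3.94% depleted. Respiratory chain genes gave 8 enriched and 0 depleted of 74 with a median of 0.33, and 68 of the 74 had a value above 0. The median span was 7.2 kb in this list and 5.9 kb in the cytoskeleton list below. Of all protein-coding genes under 10 kb, 10.4% were enriched, with a median of 0.26, and the part of span in these lists was not tested. Ndufb8, a complex I subunit gene, differed by 0.66 ± 0.14 (adjusted p = 6.81e-04), which falls to 0.54, under the fold limit, without FANS replicate 3. Glycolysis genes (3 enriched and 0 depleted of 16, median 0.38) included Aldoc, an aldolase gene that astrocytes also express, at 0.83 ± 0.15 (adjusted p = 7.58e-05). Cytoskeleton genes (4 enriched and 0 depleted of 33, median 0.32) included Tubb4b, a tubulin gene, at 0.79 ± 0.12 (adjusted p = 1.55e-05). Translation factors (2 enriched and 0 depleted of 44, median 0.22), with a share enriched near that over all genes, included the elongation factor gene Eef2, at 0.71 ± 0.05 (adjusted p = 1.21e-10). Proteasome genes gave 3 enriched and 0 depleted of 34, median 0.15, and cytosolic chaperones 0 enriched and 0 depleted of 29, median 0.30. Ribosomal protein genes, which are short, gave 22 enriched and 1 depleted of 83. Histone genes of the replication-dependent clusters, short and of 1 exon, gave 8 enriched and 0 depleted of 35 with a median of 0.52, Hist1h2ae at 0.70 ± 0.17 among them (adjusted p = 0.00172). Reads of such near-identical gene copies may be split between them.

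**Figure D5:**
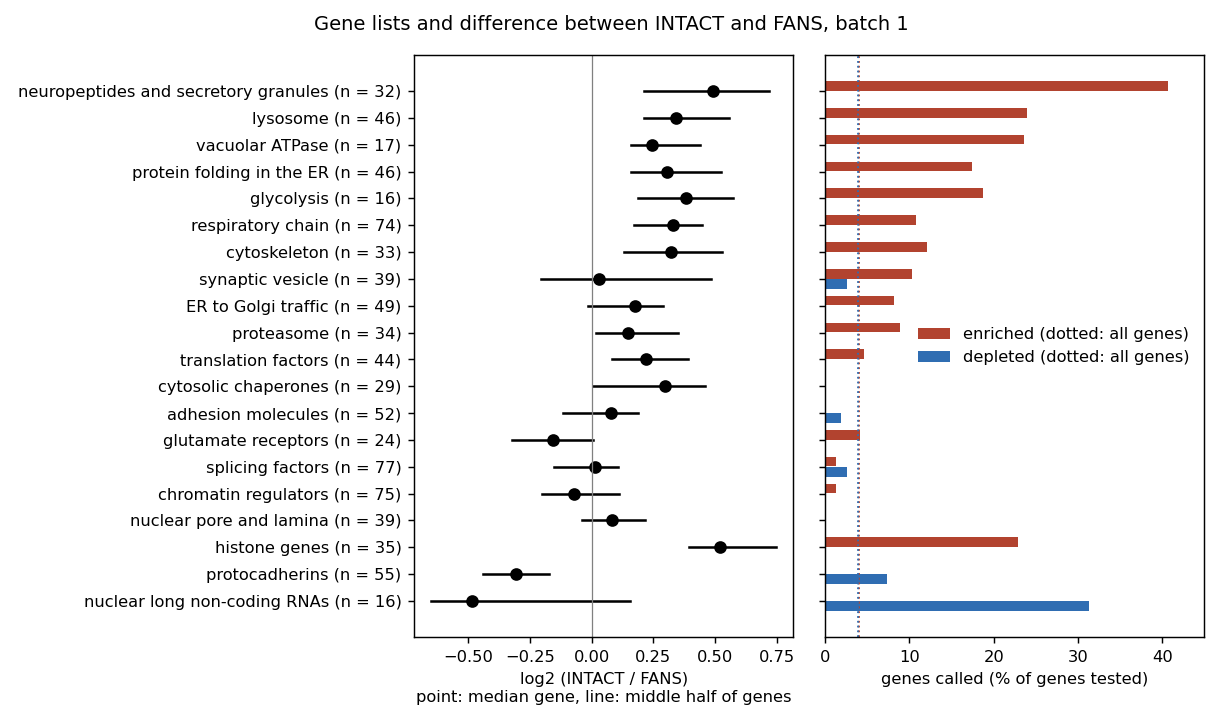
Log2 difference between INTACT and FANS in batch 1 (left, the point is the median gene and the line spans the quartiles) and percent of genes called (right) for 20 gene lists, with the number of genes tested in brackets and the share over all genes dotted. The neuropeptide and granule list had 40.6% of its genes enriched and the lysosome list 23.9%, and of nuclear long non-coding RNAs 31.2% were depleted.

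Lists of the nuclear machinery had medians near 0. Among splicing factors (1 enriched and 2 depleted of 77, median 0.01), the depleted ones were Rbm6 at -0.69 ± 0.06 and Srrm3 at -0.63 ± 0.06 (adjusted p = 9.90e-10 and 2.29e-08). Among chromatin regulators (1 enriched and 0 depleted of 75, median -0.07), the gene called was the histone deacetylase gene Hdac3 at 0.67 ± 0.06 (adjusted p = 2.82e-09). Genes of 3′ end processing (1 enriched and 0 depleted of 36, median 0.01), of RNA polymerase II and Mediator (1 enriched and 0 depleted of 56, median 0.06) and of the nuclear pore and lamina (0 enriched and 0 depleted of 39, median 0.08) held 0 or 1 called gene each. Immediate early genes, which neuronal activity induces, gave 1 enriched and 0 depleted of 27, median 0.20, a share near the 4.03% over all genes, and clock genes gave 0 enriched and 0 depleted of 19, median -0.11. Zinc finger genes with a Zfp symbol (3 enriched and 9 depleted of 351, median -0.06) were 0.855% enriched and 2.56% depleted, beside 4.32% and 2.34% of all protein-coding genes.

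The synaptic vesicle, receptor, channel, adhesion and protocadherin lists held 0 to 4 called genes in each direction, and differences between these lists were not tested. The shares over all genes were 4.03% enriched and 3.94% depleted. Among synaptic vesicle genes (4 enriched and 1 depleted of 39, median 0.03), Synpr was enriched and the active zone gene Rims2 depleted, at -0.67 ± 0.05 (adjusted p = 4.38e-10). GABA-A receptor genes gave 2 enriched and 0 depleted of 12, median 0.24. Glutamate receptor genes gave 1 enriched and 0 depleted of 24, median -0.16, a share near that over all genes, and sodium, calcium and HCN channel genes 0 enriched and 0 depleted of 23, median 0.02. Among adhesion molecules (0 enriched and 1 depleted of 52, median 0.08), many of which are very long genes, the depleted one was Lrrtm4, at -0.73 ± 0.07 (adjusted p = 1.33e-08). Protocadherins (0 enriched and 4 depleted of 55, median -0.30) share exons within their clusters, so that their reads may be split. Genes with a Kcn symbol, mostly potassium channels (1 enriched and 4 depleted of 77, median 0.01), were 1.3% enriched and 5.2% depleted, solute carriers (10 enriched and 3 depleted of 270, median 0.09) 3.7% and 1.11%, and Tmem genes (12 enriched and 2 depleted of 193, median 0.19) 6.22% and 1.04%, beside 4.32% and 2.34% of all protein-coding genes.

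Of all non-coding genes 20.1% were depleted, and lists of uncharacterised transcripts, which also hold coding genes, stood at 15.2% for RIKEN transcripts (9 enriched and 138 depleted of 905, median -0.15), 20.9% for predicted Gm genes (4 enriched and 67 depleted of 320, median -0.30) and 27.9% for genes whose symbol marks an opposite-strand transcript (1 enriched and 31 depleted of 111, median -0.26). Snhg genes, the long non-coding hosts of small nucleolar RNAs, gave 1 enriched and 1 depleted of 15, median 0.28, and vascular markers 2 enriched and 1 depleted of 6, beside 4.03% enriched and 3.94% depleted of all genes.

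Whether these class differences were particular to batch 1 was examined against the other 2 batches, of 7 FANS and 4 INTACT libraries (batch 2) and of 7 and 5 (batch 3), each from another biological source. A further 2 libraries that the labels place in batch 2, 1 per technique, were not analysed here. The effect of the technique in batch 1 minus that in another batch was tested over 14332 genes in all 3 tables, again with limma. Taken alone, batch 2 had 14 genes (0.0941%) enriched and 5 (0.0336%) depleted in INTACT and batch 3 had 2 (0.0139%) and 50 (0.346%), but a call in 1 batch and not in another is no test of their difference. The tested difference was below batch 2 for 635 genes (4.43%) and above it for 268 (1.87%), and below batch 3 for 1734 (12.1%) and above it for 1599 (11.2%). Of 231 non-coding genes inside a gene on the opposite strand, 55 were below and 0 above batch 2, and 106 below and 2 above batch 3, with medians of -0.65, -0.13 and 0.06 in batches 1, 2 and 3. Of 2981 protein-coding genes that span under 10 kb, 109 were above and 39 below batch 2, and 602 and 94 batch 3, with medians of 0.27, 0.08 and 0.004.

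The secretory lists were also set against the other batches. All 32 neuropeptide and granule genes were in the 3 tables, and 8 of them were above batch 2 and 23 above batch 3 with none below, at medians of 0.49, 0.04 and -0.24. For lysosomal genes the counts were 7 and 22 of 46, for ER folding genes 8 and 26 of 46, again with none below. ER translocation genes gave 0 above and 1 below batch 2, and 11 above and 1 below batch 3, of 24. ER to Golgi traffic genes gave 1 and 2 against batch 2, and 13 and 3 against batch 3, of 49. For N-glycosylation genes these counts were 1 and 0, and 13 and 1, of 36. Genes with an N-terminal stretch had medians of 0.12, 0.05 and -0.03, with 82 above and 58 below batch 2 and 516 and 172 batch 3, of 2506. Over all genes in the 3 tables, 1.87% lay above and 4.43% below batch 2, and 11.2% above and 12.1% below batch 3. By the study's account the RNA of batch 1 was also of higher integrity than that of batches 2 and 3. The batch, the source of the nuclei and the RNA integrity cannot be told apart.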

How the data were processed

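RNA of 10000 nuclei per library was sequenced from SoLo libraries (1.23 ng of RNA and 13 PCR cycles per the labels). According to the submitters' processing notes, FastQC, STAR, HTSeq and DESeq were used with mm10. The authors deposited normalized read counts, a signal of gene counts divided by size factors, with 24421 genes and 5 summary rows for reads not assigned to 1 gene, which were left out of tests. The feature type and the strand setting of the counting are not given in the sources used here. Whole reads were recovered for 100% of values within a tolerance of 0.006, and they set the depths and served for edgeR and DESeq2.

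limma 3.58.1 (R 4.3.3) was run over genes averaging 5 or more normalized counts on log2(normalized count + 1), 4 against 4 libraries, with Benjamini-Hochberg adjustment over 15114 genes. A fold change on this scale understates the change of low genes. A gene was called at an adjusted p under 0.05 and at least 1.5-fold. The differences between batches came from 1 fit with interaction terms over the 3 tables, each normalized separately. Alternatives were edgeR 4.0.16, DESeq2 1.42.0, other filters, pseudocounts and scalings, thinned reads, a replicate block and leaving out each library. The fits were tested on simulated data.

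RefSeq annotation of GRCm38.p6, the mm10 assembly, gave transcript type, position, span and exonic length, with 23178 genes matched by symbol, 1078 by an older symbol and 165 unmatched. Hydropathy came from translated RefSeq coding sequences. The genes named were, in each direction, the 12 largest changes with a mean of at least 50 and no overlap between techniques, up to 4 called members of each list or class by size, and the gene around each non-coding gene named. 3 genes, 2 of them named by this rule, are not reported here. Gpr171, P2ry14, Med12l, Cdr1, C230004F18Rik, Ube3a, Erc2, Malat1, Neat1, Meg3, Npy and Sst, and the genes around named coding genes, were added after their values were seen. The members, classes and lists were chosen with earlier results of these data known. Columns of per-sample values without a sample numbered 0.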

Additional observations from a re-analysis of the deposited data

Results flagged for a closer look

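In groups of 4 libraries, 12 of 138 groups of values held a library whose gap to the nearest other, as a share of the group's range, passed Dixon's 95% critical value, and chance flags about 1 in 20 such groups. The groups, with this share in brackets, were Nrg3os in INTACT (0.847), P2ry12 in INTACT (0.840), Gpr171 in INTACT (0.990), Kcnq1ot1 in FANS (0.906), Mir384 in FANS (0.985), Muc6 in INTACT (0.936), Kcnip4 in FANS (0.968), Rce1 in INTACT (0.877), Synpr in FANS (0.984), Hspa5 in FANS (0.936), Aldoc in INTACT (0.853) and the number of genes detected in FANS (0.989).

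For 50 of the genes named, the log2 difference between INTACT and FANS in batch 1 differed from that in batch 2 (limma, adjusted p under 0.05). Batch 1 minus batch 2 was below 0 for 9530091C08Rik (-2.096), Mir128-2 (-1.983), Muc6 (-1.767), 5031426D15Rik (-1.729), Nrg3os (-1.601), Acot10 (-1.585), Lrtm1 (-1.585), Gm5136 (-1.409), P2ry14 (-1.059), Kcnq1ot1 (-1.051), Pcsk2os2 (-1.032), Cdr1 (-1.016), P2ry13 (-1.001), Ube3a (-0.979), Gpr171 (-0.886), C230004F18Rik (-0.861), Erc2 (-0.803), P2ry12 (-0.795), Meg3 (-0.761), Kcnip4 (-0.748), Mir1188 (-0.679), Malat1 (-0.632), Arpp21 (-0.615), Lrrtm4 (-0.575), Rbm6 (-0.546), Srrm3 (-0.537), Rims2 (-0.446), Snhg14 (-0.434), Celf2 (-0.404) and Nrg3 (-0.333). It was above 0 for Npy (2.303), Sst (1.418), Map1lc3a (0.993), Cst3 (0.926), Rce1 (0.906), Penk (0.866), Pcsk1n (0.844), Tmem35 (0.816), Synpr (0.763), Ctsb (0.697), Prnp (0.681), Psap (0.670), Pdia3 (0.663), Cpe (0.639), Calr (0.634), Tubb4b (0.601), Atp6ap2 (0.598), Hspa5 (0.581), Eef2 (0.483) and Hdac3 (0.479).

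Against batch 3, 56 of the genes named differed, while over all genes 12.1% lay below and 11.2% above batch 3. Batch 1 minus batch 3 was below 0 for Mir128-2 (-2.518), 9530091C08Rik (-2.367), Muc6 (-2.206), 5031426D15Rik (-2.115), Nrg3os (-1.908), Acot10 (-1.907), Lrtm1 (-1.885), Gm5136 (-1.602), Cdr1 (-1.291), Pcsk2os2 (-1.267), Kcnq1ot1 (-1.263), Ube3a (-1.232), C230004F18Rik (-1.203), P2ry13 (-1.198), Gpr171 (-1.188), P2ry14 (-1.159), Meg3 (-1.049), Erc2 (-1.048), Kcnip4 (-0.977), P2ry12 (-0.906), Arpp21 (-0.903), Malat1 (-0.895), Mir1188 (-0.820), Rbm6 (-0.804), Lrrtm4 (-0.801), Srrm3 (-0.742), Snhg14 (-0.741), Rims2 (-0.667), Celf2 (-0.533), Nrg3 (-0.429) and Rora (-0.269). It was above 0 for Npy (1.903), Sst (1.647), Penk (1.493), Aldoc (1.299), Synpr (1.139), Prnp (1.124), Tmem35 (1.120), Cpe (1.099), Pcsk1n (1.045), Pdia3 (1.042), Tubb4b (1.036), Cst3 (1.034), Atp6ap2 (1.024), Ctsb (1.015), Tmed7 (1.014), Hspa5 (1.009), Map1lc3a (0.982), Calr (0.978), Psap (0.955), Ndufb8 (0.911), Rce1 (0.792), Eef2 (0.674), Syt1 (0.617), Hdac3 (0.542) and Pcsk2 (0.454).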

How the results depend on the processing

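The counts of called genes stayed within 1.5 times the values in the report with edgeR (605 enriched and 649 depleted), DESeq2 (518 and 606), a pseudocount of 5, no filter on low values, 75th percentile scaling, quantile normalization and libraries thinned to the same number of reads on genes, which leaves the share of reads outside features unequal. Of the same 609 enriched and 596 depleted genes, DESeq2 called 516 and 568, and the thinned libraries called 463 and 492, the fewest of these settings except for the filter below. A filter at a mean of at least 50, which tests fewer genes, left 379 enriched and 300 depleted genes, among the depleted 48 non-coding genes inside on the opposite strand, 22 on the same strand, 50 outside, 39 coding genes within an intron, and 4 microRNA genes, among the enriched 212 coding genes under 10 kb, and at a mean of 20 to 100, 107 enriched and 61 depleted coding genes.

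Leaving out each library in turn gave 535 to 716 enriched and 537 to 647 depleted genes. The depleted counts were 98 to 112 for non-coding genes inside on the opposite strand, 50 to 56 on the same strand, 93 to 112 outside, 60 to 75 for coding genes within an intron, 27 to 44 for microRNA genes and 34 to 42 for coding genes above 300 kb. The enriched counts were 291 to 403 for coding genes under 10 kb, 194 to 253 with an N-terminal stretch, 9 to 14 for neuropeptide genes, 9 to 12 for lysosomal genes, 6 to 10 for folding genes and 6 to 9 for respiratory chain genes, and at a mean of 20 to 100 they were 200 to 274 enriched and 134 to 168 depleted coding genes. The percent of reads outside features differed by -9.16 to -8.39 percentage points. Fitted with a pseudocount of 5, 300 genes lay above and 660 below batch 2, and 1626 and 1759 batch 3.

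The replicate numbers do not mark shared animals in the labels, and libraries of the same number did not deviate together (correlations of -0.07, -0.01, -0.02 and -0.06). With the replicate number as a block, 597 genes were enriched and 574 depleted. Of the 63 genes followed through the settings that tested them (Npy and Sst fall under the filter at 50), calls were lost for Mir384, Ndufb8 and Snhg14, the first also with a pseudocount of 5 (-0.58) and with thinned reads (-0.49). Reads on genes were fewer in the FANS libraries, which limits calls of genes with low counts.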
